A study of Mus musculus with 4 samples.

Results

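The 8 genes that flank the HoxB cluster on mouse chromosome 11 were examined for CTCF binding in mouse embryonic stem cells (mESC). Igf2bp1, Snf8, Ube2z and Calcoco2 lie on the Hoxb13 side of the cluster, and Skap1, Snx11, Cbx1 and Nfe2l1 on the side of Hoxb1. They are 8 of 49943 genes in the mm10 RefSeq table. Every CTCF peak whose summit fell within 10 kb of 1 of them on the chromosome with the array was taken, which gave 62 of the 93969 peaks of the Ins library, 45 of 74555 for Del(CBS8-10), 42 of 66365 for Inv and 64 of 99177 for Inv:Del(CBS7-10). Values for the 4 libraries are given in this order throughout.

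CTCF was profiled by CUT&RUN, in which an antibody brings a nuclease to the bound protein and the cut DNA is sequenced, with 1 library for each of 4 genotypes. On 1 homologue of chromosome 11 the lines shared a deletion at HoxB, written Del. The other homologue carried the deletion Del(i9-13) and, as Ins(CBS5-10), an inserted array of CTCF binding sites. The Ins line had no further change. The second line added Del(CBS8-10), the third the inversion Inv(CBS5-10), and the fourth Inv(CBS5-10) together with Del(CBS7-10). The labels do not say how many clones a line stands for. Peaks of CTCF do not measure expression, so the mESC label was not checked against marker genes.

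CTCF is a zinc-finger protein that binds DNA and halts the cohesin ring as it extrudes a chromatin loop, and pairs of its sites often mark the ends of loops and domains. Sites around a gene cluster such as HoxB can therefore limit which genes an enhancer reaches. The genes on either side of HoxB differ in function. Skap1 encodes an adaptor of T-cell signalling, Snx11 a sorting nexin of endosomes, Cbx1 the heterochromatin protein HP1-beta, and Nfe2l1 a transcription factor of the proteasome stress response. Calcoco2 (NDP52) is an autophagy receptor, Ube2z a ubiquitin-conjugating enzyme, Snf8 a subunit of the ESCRT-II complex, and Igf2bp1 an RNA-binding protein of developing tissues.

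With 1 library per genotype there is no replicate check and no test between genotypes, and no p-value is given. Each peak carries the authors' −log10 q, the strength of evidence for that peak, and their fold over the local background of the same library. Both describe a peak within the list of its own library, so strengths are compared as the percentile of the −log10 q among all chromosome 11 peaks of that library. Read depth was not given in the sources that were used. The pileup, which is the number of fragments at the summit, and the local background were instead solved from the deposited fold and −log10 p. At chromosome 11 peaks elsewhere the median pileup was 24, 16, 15 and 34 and the median background 1.70, 0.98, 0.72 and 2.42 fragments. Both were highest for Inv:Del(CBS7-10), followed by Ins, and lower in the other two libraries.

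The authors' genome holds a second, separate chromosome 11 with the Del deletion, here the Del copy. It carries the same flanking genes, and reads from either chromosome can be placed on either copy. Values from the Del copy therefore stand beside those from the chromosome with the array, and neither is the signal of a single chromosome. Both come from the reads of the same library, so agreement between the copies is not an independent repeat of a result. Summit counts, percentiles and ranks are those of the chromosome with the array unless the Del copy is named.

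Summits lay close to an annotated gene start in 3 of the 4 flanking genes for which RefSeq promoter sequence was at hand, for Ube2z in the Ins library only. The share of all promoters with such a summit was not counted, so this only describes these genes. The windows reach from 250 bases before to 50 bases after a start (GRCm38.p6, the same assembly as mm10) and are shown 5′ to 3′ on the minus strand, on which these genes are read. They are shown because a CTCF summit falls inside them, and capitals run from the lowest to the highest summit in the window with 10 bases on either side.
Snx11, chr11:96777506-96777805: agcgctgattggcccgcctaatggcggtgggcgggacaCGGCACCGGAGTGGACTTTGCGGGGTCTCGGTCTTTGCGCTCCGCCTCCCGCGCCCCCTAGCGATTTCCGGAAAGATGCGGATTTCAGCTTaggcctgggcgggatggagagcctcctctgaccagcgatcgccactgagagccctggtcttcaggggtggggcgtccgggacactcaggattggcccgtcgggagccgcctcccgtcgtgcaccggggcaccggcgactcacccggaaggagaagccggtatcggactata
Nfe2l1, chr11:96829919-96830218: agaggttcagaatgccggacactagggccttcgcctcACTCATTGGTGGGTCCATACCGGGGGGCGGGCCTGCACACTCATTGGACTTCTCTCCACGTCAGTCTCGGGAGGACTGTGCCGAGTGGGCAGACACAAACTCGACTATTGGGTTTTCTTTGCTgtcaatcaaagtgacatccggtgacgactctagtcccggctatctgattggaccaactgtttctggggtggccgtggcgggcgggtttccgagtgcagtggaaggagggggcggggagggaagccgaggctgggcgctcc
Nfe2l1 inner start, chr11:96824078-96824377: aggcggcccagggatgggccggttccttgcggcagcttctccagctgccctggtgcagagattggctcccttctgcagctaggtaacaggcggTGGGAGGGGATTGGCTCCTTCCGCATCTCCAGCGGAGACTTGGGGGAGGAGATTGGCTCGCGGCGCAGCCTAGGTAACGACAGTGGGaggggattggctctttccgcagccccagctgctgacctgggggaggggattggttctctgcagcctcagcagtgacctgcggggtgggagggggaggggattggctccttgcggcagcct
Ube2z, chr11:96065315-96065614: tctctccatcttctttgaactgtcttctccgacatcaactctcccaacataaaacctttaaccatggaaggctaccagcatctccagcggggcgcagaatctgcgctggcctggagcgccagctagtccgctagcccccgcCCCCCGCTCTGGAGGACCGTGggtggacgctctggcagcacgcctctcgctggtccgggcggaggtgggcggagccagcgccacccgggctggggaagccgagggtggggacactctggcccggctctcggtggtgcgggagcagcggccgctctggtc

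In the Snx11 window the summits of all 4 libraries fell between 132 and 202 bp from the start. The capitals there hold the letters GCGCCCCCT, the reverse complement of AGGGGGCGC, a run that resembles the centre of the known CTCF motif. It was searched for after the sequence had been seen. On both strands it occurs in 1 of the 8 promoter windows of these genes, that of Snx11, and in 1.25% of all 32851 promoter windows of the table. The core CCANNAGNNGGC, with N for any letter, is in 0 of the 8 windows and in 2.43% of all. A match is a description of the letters and not a mapped site.

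The Nfe2l1 gene had summits of all 4 libraries in its outer promoter window, 101 to 203 bp from the start. Around the inner start, summits of the Ins, Inv and Inv:Del(CBS7-10) libraries lay 81, 143 and 147 bp away, with −log10 q of 15.2, 7.65 and 2.22. On the Del copy the same inner position had a −log10 q of 6.38, 3.45, 5.30 and 19.1, so the Del(CBS8-10) library had a summit there on that copy alone. The Ube2z window held a summit of the Ins library only, 99 bp from the start, with a −log10 q of 7.66 and no partner on the Del copy. The nearest summits of the Inv and Inv:Del(CBS7-10) libraries lay 655 and 739 bp from it, inside Ube2z. The Cbx1 window held no summit, and the nearest lay 1097 to 1127 bp from the start in the 4 libraries, inside the gene.

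Each of the 8 genes had at least 1 CTCF summit within 10 kb in all libraries. This is common: such a summit was found for 68.5%, 64.4%, 61.4% and 69.5% of all genes in the 4 libraries, for 56.1% of all genes in every library, and for 73.0% of 21887 protein-coding genes in every library. The count of genes therefore says little, and the description below turns on single positions.

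Summits of the 4 libraries within 100 bp of each other were joined, which gave 87 positions around the 8 genes. Of these, 26 had a summit in all 4 libraries (29.9%, 95% Wilson interval 21.3 to 40.2, counting error only), 18 in 3, 12 in 2 and 31 in 1. Elsewhere on chromosome 11, 36.6% of 7124 positions had a summit in all 4 libraries, which lies inside that interval. When a summit on either copy was counted, 32 of the 87 were in all 4 libraries. A Del summit within 100 bp of more than 1 position counted for each of them, which can raise this number. Inside the genes 17 of 62 positions were in every library, and outside them 9 of 25. Of those 9, 2 lay within Ttll6, the tubulin glutamylase gene next to Calcoco2, and 7 lay in no gene of the table.

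At the 26 positions present in every library the summits spanned a median of 20.5 bp and at most 102 bp, a range that the joining of summits within 100 bp itself limits. Of the 26, 24 also had a summit in all 4 libraries on the Del copy. They were the strong ones: the median −log10 q was 48.5, 18.1, 26.1 and 92.7 at these positions, against 8.95, 7.71, 6.76 and 11.1 at summits of positions found in fewer libraries. Their median percentile within the library was 79.6, 67.8, 74.1 and 79.0.

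**Figure D1:**
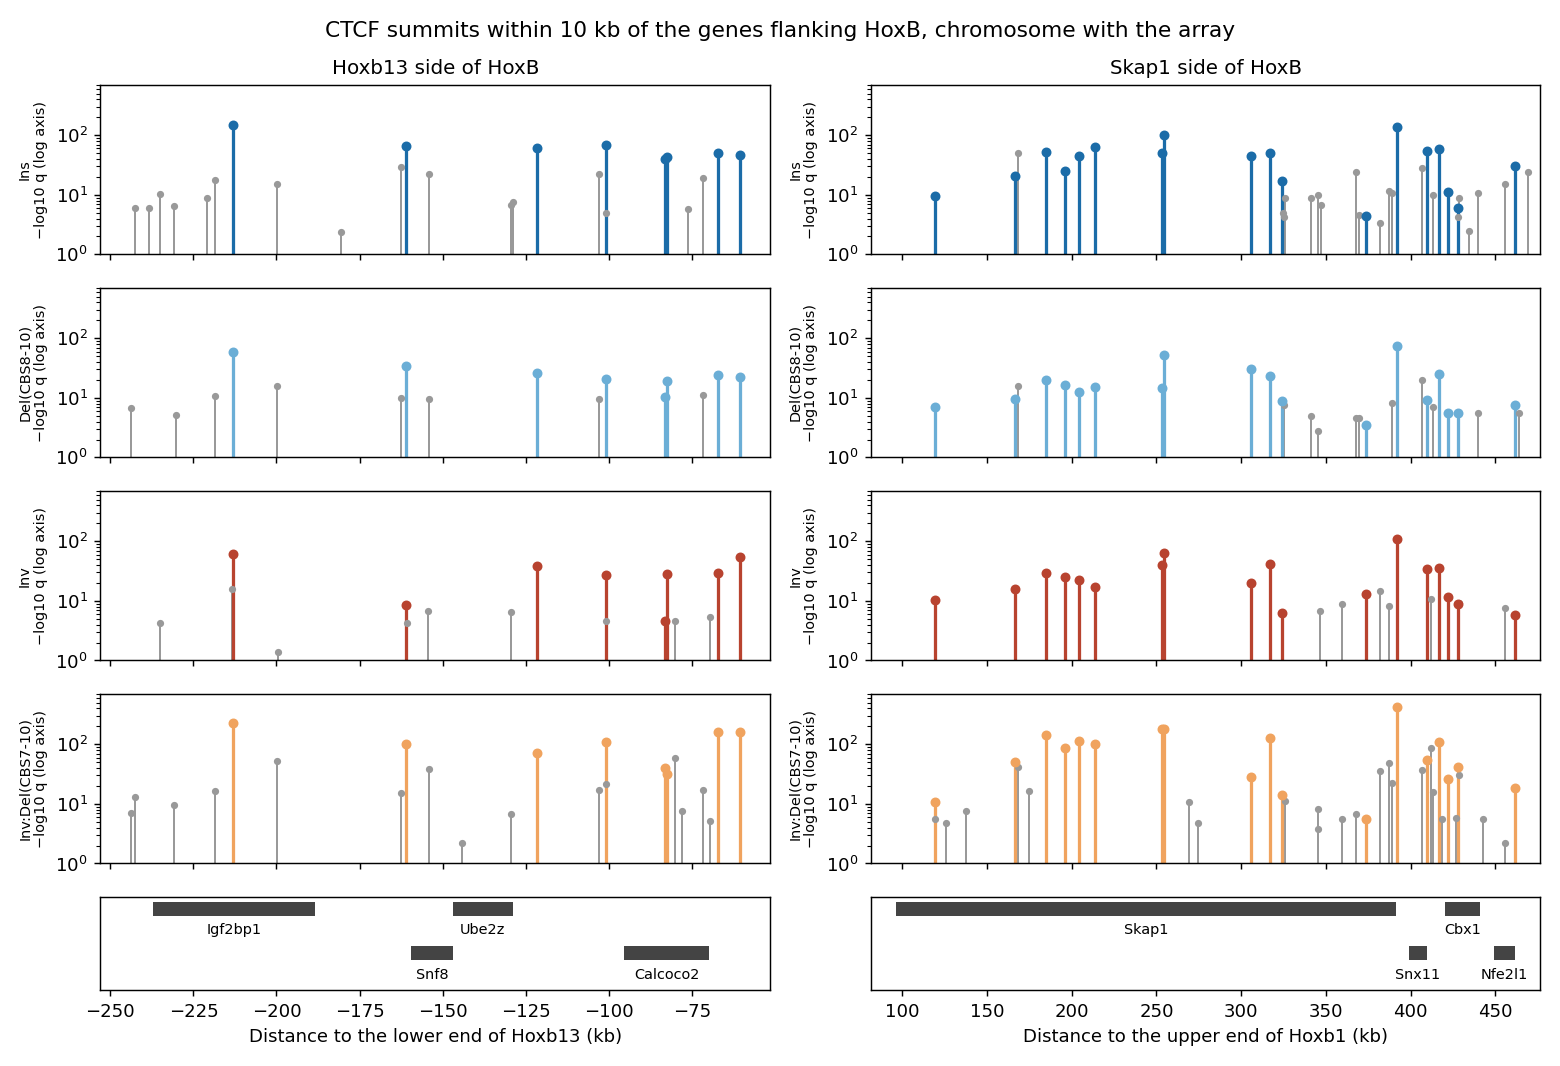
CTCF summits within 10 kb of the flanking genes on the chromosome with the array, by library (rows) and side of HoxB (columns), with the −log10 q on a log axis and the distance to Hoxb13 or Hoxb1 in kb. Coloured summits belong to the 26 positions found in all 4 libraries and grey ones to positions found in fewer, and the bars below mark the genes. The highest stem of the Skap1 side, just beyond the upper end of Skap1, is at 135, 73.3, 109 and 420 in the 4 libraries.

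The strongest position shared by all 4 libraries lay between Skap1 and Snx11. Its summit was at 96760222 on chromosome 11 of mm10, 0.60 kb beyond the upper end of Skap1 and 7.32 kb before the lower end of Snx11, in no annotated gene. The −log10 q was 135, 73.3, 109 and 420, the fold 21.4, 19.2, 24.8 and 26.1 and the pileup 139, 76, 102 and 411 fragments. The Del copy gave a −log10 q of 133, 65.9, 106 and 411. The percentile ran only from 99.4 to 99.9, the narrowest range of the 26 positions, so the site stood near the top of each list. It was the strongest summit of the 8 genes in 3 libraries and came after that of Igf2bp1 in the Ins library, while on the Del copy it came after Igf2bp1 in the Del(CBS8-10) library instead.

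Igf2bp1, the member farthest out on the Hoxb13 side, carried the other leading site at 95981154, in the middle of the gene and 24.0 kb from its lower end. The −log10 q was 147, 59.2, 61.2 and 231, and the percentile 99.5, 98.9, 95.5 and 98.7. For the Del copy the −log10 q was 128, 75.2, 65.0 and 243. The Inv library had another summit 226 bp to 231 bp from those of the Ins and Inv:Del(CBS7-10) libraries, at 95980925, at a −log10 q of 15.9 on the chromosome with the array and 20.2 on the Del copy and none in the other libraries on either copy. Igf2bp1 had 13 positions in all, of which the site at 95981154 was the only one in every library. Another of its sites, at 95994357, had 15.5, 16.1, none and 51.8, and on the Del copy 24.7, 4.12, none and 56.4. Counts of summits near Igf2bp1 were 9, 5, 4 and 6, and on the Del copy 9, 3, 4 and 10.

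Snf8 and Ube2z are short genes that lie next to each other. Summits numbered 3, 3, 3 and 4 near Snf8 and 4, 2, 3 and 4 near Ube2z. Per 100 kb of gene and flanks this was 9.22, 9.22, 9.22 and 12.3 for Snf8. It was 10.5, 5.27, 7.91 and 10.5 for Ube2z, against 7.94, 6.35, 5.40 and 8.89 for Skap1, the longest gene. The strongest of Snf8 stood 1.49 kb before its lower end, at 96033392, with a −log10 q of 65.5, 34.8, 8.59 and 103. The percentile was 89.0, 90.9, 35.8 and 82.1, so this site ranked high in 3 libraries and in the lower part of the Inv list. The Inv value was also low on the Del copy, at 10.04, beside 45.1, 14.8 and 89.7 in the other libraries. The strongest near Ube2z stood 7.29 kb beyond its upper end, at 96072657, with 62.3, 26.3, 39.2 and 71.6, at percentiles of 87.5, 82.4, 85.7 and 72.8. This site lay closer to the neighbour Atp5g1, whose lower end is at 96072793, and was the strongest near that gene too. The values of the site on the Del copy were 27.7, 18.4, 23.7 and 72.7, at percentiles of 62.0, 69.5, 70.7 and 72.7, so the copies differed most in the Ins library.

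Calcoco2, the flanking gene nearest to Hoxb13, had 9, 7, 8 and 11 summits and 5 positions in every library. They lay 5.36 kb before the gene at 96093558, inside it at 96111140 and 96111924, and beyond it, within Ttll6, at 96127128 and 96133682. The site before the gene had a −log10 q of 70.0, 20.4, 26.7 and 108, and on the Del copy 56.9, 33.7, 24.5 and 87.3. The last of the sites beyond it, 9.12 kb from the gene, had 47.0, 22.2, 53.7 and 164. Its percentiles were 78.5, 76.1, 93.2 and 93.7 on the chromosome with the array and 92.0, 83.1, 90.1 and 91.1 on the Del copy, where the −log10 q was 73.3, 26.5, 46.6 and 147. The higher rank in both libraries with the inverted array was thus not found on the Del copy.

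The inside pair of Calcoco2 differed between libraries although the sites are 0.784 kb apart. At 96111140 the −log10 q was 39.2, 10.2, 4.57 and 40.2, and the percentile lay between 72.8 for Ins and 11.5 for Inv, the widest range (61.4) of the 26 positions. At its neighbour 96111924 the −log10 q was 42.7, 19.4, 27.9 and 31.3, and the Inv library had the highest percentile, 76.2. The Del copy gave 31.8, 12.8, 4.97 and 48.5 at the first and 49.7, 20.5, 29.8 and 18.8 at the second. So the Inv list was low at the first site and not at the second on both copies.

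A further site inside Calcoco2, at 96114251, was called on the chromosome with the array in the Inv:Del(CBS7-10) library only, with a −log10 q of 59.9 and a pileup of 103. Of 471 peaks of like −log10 q (within 20%) of that library elsewhere on chromosome 11, 8 (1.70%, 0.863 to 3.32) had no summit in the Ins list, 38 (8.07%) none in the Del(CBS8-10) list and 33 (7.01%) none in the Inv list. This site, like the later ones given with such shares, was picked from many absences, so a low share is partly set by that choice. The Inv library had a weak summit 126 bp away, with 4.57. On the Del copy the Ins and Del(CBS8-10) libraries had a summit at the site, with 7.48 and 3.27, beside 40.6 for Inv:Del(CBS7-10). The site was thus weak rather than without any summit in those 2 libraries.

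**Figure D2:**
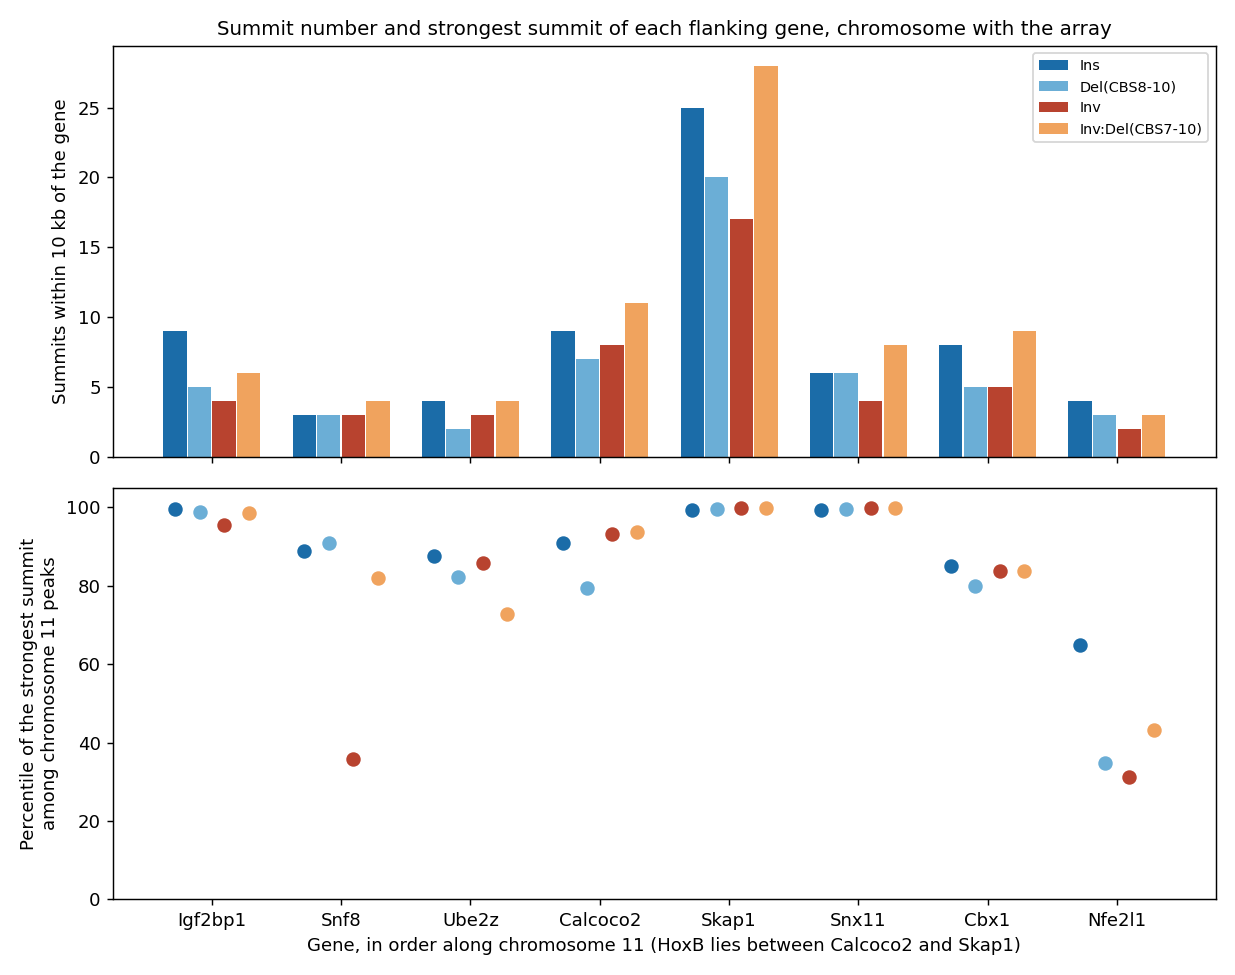
Number of CTCF summits within 10 kb of each flanking gene (upper bars, from 0) and percentile of its strongest summit among the chromosome 11 peaks of the library (lower points), for the 4 libraries. Skap1, the longest gene, has the most summits, 25, 20, 17 and 28, and shares its strongest one with Snx11. The strongest summit of Nfe2l1 ranks last of the 8 genes in every library on this chromosome. On the Del copy it does not rank last in the Inv library.

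Skap1 spans 295.053 kb and held more CTCF summits than most genes of its size. Within 10 kb it had 25, 20, 17 and 28 summits, against medians of 8, 7, 6 and 9 for 166 protein-coding genes outside chromosome 11 of a length within 10% of it. Of these genes 161, 162, 162 and 162 had fewer summits and 4, 3, 4 and 4 had more. The genes with the most similar counts over the 4 libraries, by Euclidean distance, were Ctif with 26, 18, 19 and 29, Shroom3 with 25, 17, 16 and 29, and Kif6 with 26, 23, 19 and 24. Skap1 on the Del copy had 21, 17, 19 and 27 summits.

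The Skap1 summits began well inside the gene. On the chromosome with the array, the first from the Hoxb1 side lay 23.176, 23.139, 23.161 and 22.857 kb from the lower end of the gene. The stretch of 96.316 kb between Hoxb1 and Skap1 held 5, 3, 5 and 7 summits. The first position in every library, at 96487738, was weak on the chromosome with the array, with a −log10 q of 9.53, 6.92, 10.5 and 10.8. The Del copy gave 28.8, none, 6.84 and 42.4 there, and the pileup was 13 against 28 in the Ins list and 16 against 44 in the Inv:Del(CBS7-10) list.

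Of the 34 Skap1 positions 13 were in every library, and they came in groups. A set of 4 stood in a row at 96553304, 96564273, 96572704 and 96582172, spaced by 10.969, 8.431 and 9.468 kb. Their −log10 q in the Ins library was 52.6, 25.03, 44.8 and 63.9, and for Inv:Del(CBS7-10) it was 142, 85.4, 116 and 100.0. The Del(CBS8-10) values lay between 12.7 and 20.2 and the Inv values between 17.3 and 28.9. All of these also had a summit on the Del copy in every library. For Del(CBS8-10) the values of the sites in order were 20.2, 16.8, 12.7 and 15.5, and on the Del copy 6.58, 12.6, 24.0 and 15.6. The Del copy gave 49.8, 25.2, 53.5 and 67.7 for Ins. It gave 27.9, 22.5, 25.7 and 15.9 for Inv and 135, 104, 123 and 72.7 for Inv:Del(CBS7-10).

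A close pair stood 1.6 kb apart near the middle of Skap1, at 96621361 and 96622961. The second of them was the strongest site inside the gene, with a −log10 q of 103, 51.9, 62.5 and 184 and percentiles from 95.9 to 98.0. The first had 51.2, 14.9, 40.1 and 182 and ranked lowest in the Del(CBS8-10) library. Values on the Del copy were 85.0, 35.5, 64.7 and 155 at the second and 73.8, 15.5, 42.2 and 161 at the first, so there the first was the higher one in the Inv:Del(CBS7-10) library. Toward the upper end of the gene, 3 more positions in every library stood at 96673982, 96685526 and 96692449, spaced by 11.544 and 6.923 kb. The first had 44.8, 30.0, 20.3 and 28.3 and the second 50.1, 23.1, 42.1 and 127. The third was weaker, with 16.8, 8.79, 6.20 and 14.1. On the Del copy the first had 36.1, 13.1, 15.3 and 33.6 and the second 48.4, 27.4, 41.1 and 99.7. The third had 18.8, 3.33, 7.29 and 17.9 there.

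Near its upper end Skap1 had a weak position with its highest value in the Inv library. At 96742216 the −log10 q was 4.38, 3.46, 12.9 and 5.68, at percentiles 9.82, 8.64, 50.4 and 13.5. Only the Inv library had a summit there on the Del copy, with 18.7. Another position, 96750317, had a −log10 q of 3.41, none, 14.4 and 36.2. The Del copy gave none, none, 14.4 and 26.8, so on both copies the libraries with the inverted array were the higher ones.

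The clearest absence inside Skap1 was at 96536343, 71.773 kb from its lower end. The −log10 q was 49.9, 16.0, none and 42.4, and on the Del copy 43.7, 19.6, none and 59.6, so the Inv library had no summit on either copy. Its nearest summit was 1600 bp away, at the shared position 96534746, where it had a −log10 q of 15.8. Of 638 like peaks of the Ins list on chromosome 11, 18 (2.82%, 1.79 to 4.42) were without a summit in the Inv list. From the Del(CBS8-10) and Inv:Del(CBS7-10) lists the share was 10.6% (64 of 606) and 15.3% (61 of 400). Peaks were matched on −log10 q and on nothing else, and the site was picked as the clearest of many absences.

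**Figure D3:**
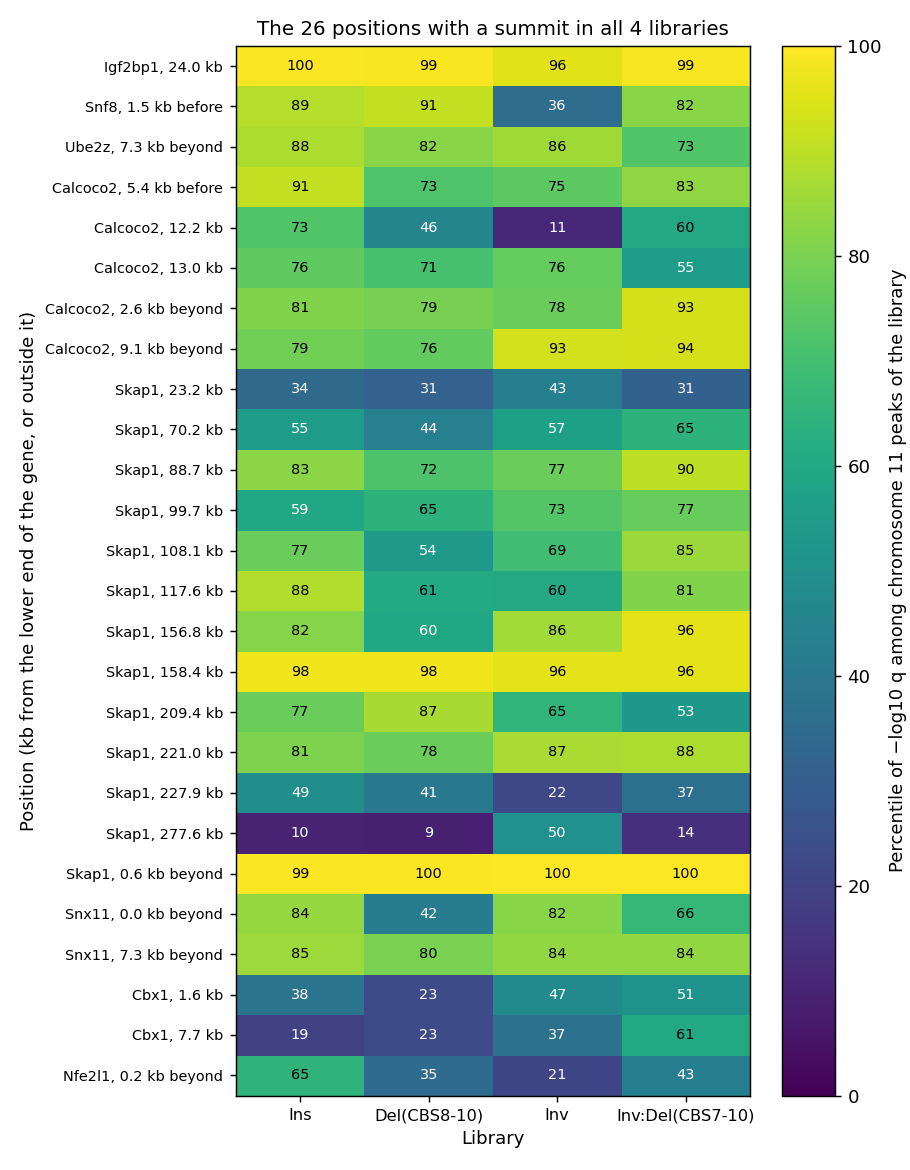
Percentile of the −log10 q among the chromosome 11 peaks of the library (colour and number) at the 26 positions with a summit in all 4 libraries, in order along the chromosome. The site just beyond Skap1 is at 99 to 100 in every column, whereas the site at 12.2 kb in Calcoco2 runs from 73 for Ins to 11 for Inv and the site before Snf8 is at 36 in the Inv library.

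Snx11 and Cbx1 are neighbours whose summits overlap in the stretch between them. Snx11 had 6, 6, 4 and 8 summits and Cbx1 8, 5, 5 and 9. Besides the strong site shared with Skap1, Snx11 had its promoter site at 96777722, shown above, with a −log10 q of 55.3, 9.29, 34.6 and 54.6. It ranked at percentiles 84.1, 42.1, 82.3 and 66.5, lowest in the Del(CBS8-10) library, and the Del copy gave 46.2, 7.26, 39.0 and 66.8. The summits of this position spanned 70 bp. The site between the genes at 96785004, 3.68 kb before Cbx1, had 57.9, 24.7, 36.1 and 109 at percentiles of 85.2, 80.1, 83.8 and 83.8. On the Del copy it had 57.8, 14.96, 29.4 and 83.9, at percentiles of 84.7, 60.7, 77.5 and 76.8, lower in the Del(CBS8-10) library than on the other copy.

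Inside Snx11, at 96774813, the −log10 q was 28.0, 19.6, none and 36.6, with none in the Inv library on the Del copy either. The share of like peaks without a summit in the Inv list was 15.4% counted from Ins, 4.68% from Del(CBS8-10) and 20.7% from Inv:Del(CBS7-10). A different pattern stood 2.74 kb beyond Snx11, at 96780447, where just the libraries with the inverted array had a summit, with 10.9 and 86.0. Of 520 like peaks of the Inv:Del(CBS7-10) library, 2 (0.385%, 0.106 to 1.39) had no summit in the Ins list and 9 (1.73%, 0.913 to 3.26) none in the Del(CBS8-10) list. On the Del copy, however, all 4 libraries had a summit there, with 6.25, 11.3, 10.1 and 87.6. The difference that both copies show is therefore the high value of the Inv:Del(CBS7-10) library.

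Inside Cbx1 the shared positions had their highest −log10 q in the Inv:Del(CBS7-10) library, as did most positions found in every library. That library also had the highest median pileup. At 96790246 the −log10 q was 10.96, 5.68, 11.8 and 26.03, at percentiles of 38.3, 23.0, 47.3 and 51.2. At 96796367 it was 5.96, 5.55, 8.84 and 41.3. The second ranked at percentile 19.2 for Ins and 60.9 for Inv:Del(CBS7-10), and the Del copy gave 7.55, 5.50, 5.87 and 61.2 there. The next position, 96796769, had 8.87, none, 9.10 and 30.9, and on the Del copy 28.5, 12.6, 9.68 and 32.7.

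Nfe2l1, the outermost gene on this side, had low CTCF values. On the chromosome with the array its strongest summit ranked last of the members in each library. It was also last on the Del copy except in the Inv library, where Nfe2l1 had 13.6 and Snf8 10.04. The gene had 4, 3, 2 and 3 summits. The promoter site at 96830129 had a −log10 q of 30.8, 7.54, 5.87 and 18.7 and percentiles of 65.0, 34.8, 20.9 and 43.2. The Del copy gave 22.2, 10.4, 13.6 and 7.65. A site 7.56 kb beyond the gene, at 96837523, was called in the Ins library only, with 24.6, and on the Del copy in the Ins library with 10.7 and in Inv:Del(CBS7-10) with 3.86.

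The local background differed from gene to gene. Around Snx11 its median at summits was 5.56, 3.05, 2.84 and 11.4 fragments, and around Calcoco2 4.64, 2.32, 2.33 and 8.98, against 1.70, 0.98, 0.72 and 2.42 at chromosome 11 peaks elsewhere. Of the Snx11 summits, 6 of 6, 5 of 6, 4 of 4 and 6 of 8 exceeded the 90th percentile of those peaks. Around Nfe2l1 the background was 1.34, 1.04, 0.52 and 1.33, and no summit exceeded it. A higher background lowers the fold and the −log10 q of a given pileup, and its part in the values around Snx11 and Calcoco2 was not tested. No control library is stated in the sources used. The background may therefore include fragments of the CTCF peaks themselves, and this was not tested either.

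Absences fell unevenly on the libraries. Of the 18 positions with a summit in 3 libraries, 12 (66.7%) had none in the Inv library, 6 (33.3%) none in Del(CBS8-10), and 0 were missing from the other two. At chromosome 11 positions elsewhere in 3 libraries, 42.5% of 952 lacked it in the Inv library, 45.7% in the Del(CBS8-10) library and 5.88% in each of the others. Of the 12 flanking positions without an Inv summit, 11 had none in that library on the Del copy either. Of the 6 without a Del(CBS8-10) summit, 4 had none in that library there. Of the 31 positions in a single library, 10, 2, 6 and 13 were those of the 4 libraries in the usual order. Without the Inv library, left out after the data were seen, 38 of the positions were in all of the other 3. The libraries with the lowest pileup and background at peaks were also those with most absences, and the part of depth was not tested.

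Shares of summits found again lay close to those of the rest of the genome. Of the 62 Ins summits, 42 (67.7%, 55.4 to 78.0) were found in the Del(CBS8-10) list, 33 (53.2%, 41.0 to 65.1) in the Inv list and 47 (75.8%, 63.8 to 84.8) in the Inv:Del(CBS7-10) list. On the other chromosomes the shares were 64.9%, 56.0% and 76.2%, each inside the interval for the flanking genes. On chromosome 11 elsewhere they were 64.4%, 62.9% and 77.3%, also inside.

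Most flanking summits had a partner on the Del copy. The share was 75.8%, 73.3%, 92.9% and 87.5%, against 80.3%, 77.8%, 88.9% and 84.6% at chromosome 11 peaks elsewhere. At positions called on both copies, the chromosome with the array held a median of 50.0%, 52.1%, 50.0% and 48.9% of the pileup of the pair. Single positions ranged from 31.7% to 65.5% for Ins, 36.8% to 70.6% for Del(CBS8-10), 37.5% to 59.2% for Inv and 23.3% to 63.9% for Inv:Del(CBS7-10). Summits without a partner were weak, with a median −log10 q of 6.12, 6.16, 4.25 and 5.22.

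**Figure D4:**
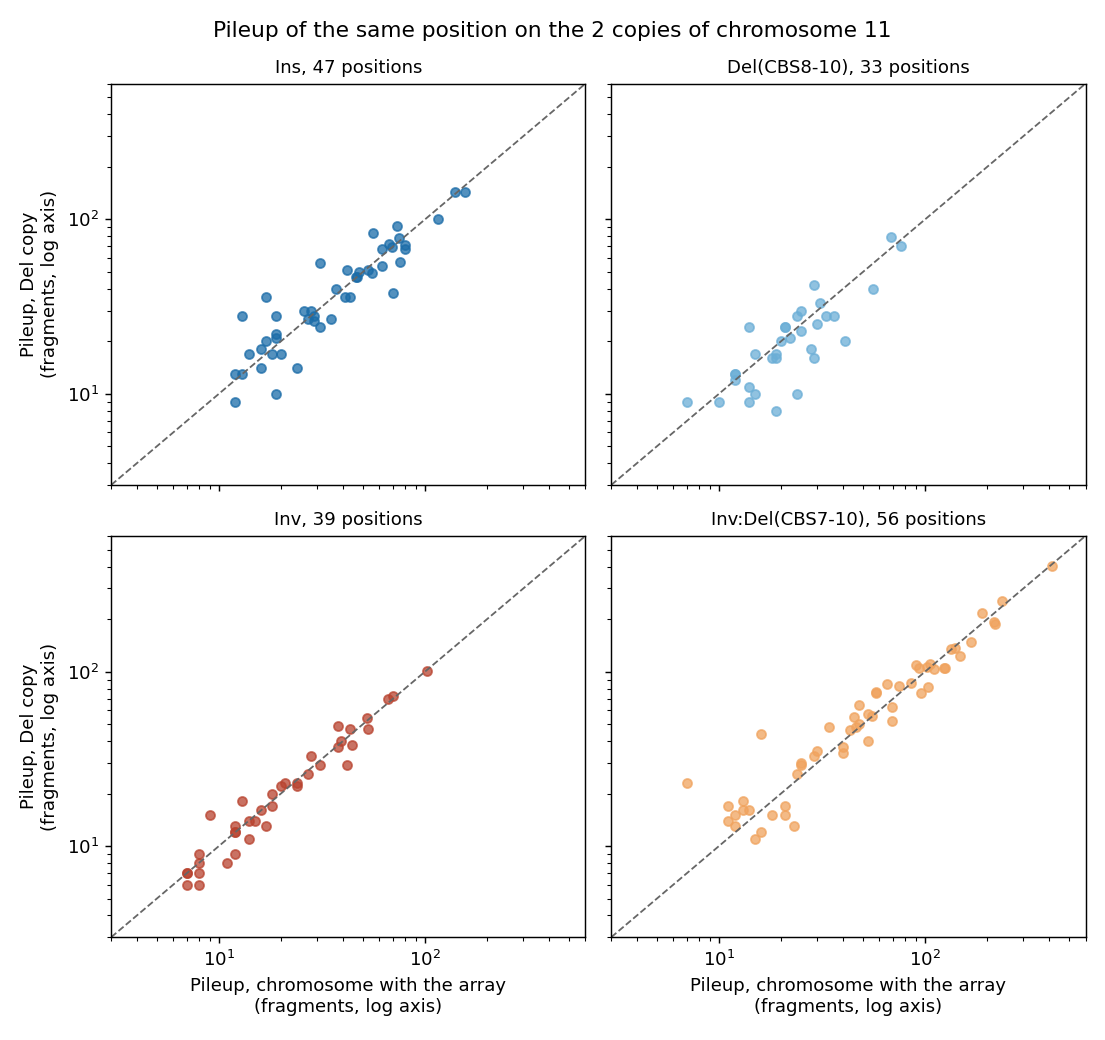
Pileup in fragments at each flanking position on the chromosome with the array (horizontal, log axis) and on the Del copy (vertical, log axis), for the positions called on both in each library. The dashed line marks equal pileup, and the points lie along it, with the median share of the chromosome with the array between 48.9% and 52.1%.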

How the data were processed

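The 4 mESC lines gave 1 CTCF CUT&RUN library each. Of tools, MACS2 2.2.7.1, Bowtie2 2.4.5, cutadapt 4.1, bedtools 2.30.0 and Picard are listed in the submitters' processing notes, with the build mm10. Their settings and any control library are stated in no source used here. The deposited lists give for each peak a score, a fold over local background (a linear ratio), a −log10 p-value and a −log10 q-value, made by the authors for each library separately on an mm10 genome with 2 copies of chromosome 11.

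All further values were computed in Python 3.11.15 (pandas 2.3.3, NumPy 2.4.6, SciPy 1.17.1, Matplotlib 3.10.9). Summits on the Skap1 side were placed on mm10 by adding 64475 bp on the chromosome with the array and 174525 bp on the Del copy. A scan against protein-coding gene ends in steps of 25 bp gave the same offsets (6.21% and 6.19% of summits within 150 bp of an end, median over offsets 1.50% and 1.49%). Summits of the Del copy were moved by a further 33 bp, the median distance between the copies. Positions are counted from 1. Pileup and background were solved from the fold and the −log10 p (tolerance 0.001), which succeeded for 100.0% of chromosome 11 peaks. Both of these steps were added after the data were seen. The offset scan, the matching of summits and the solving of the pileup were tested on simulated data. The move by 33 bp was not. Genes and promoter sequences are from RefSeq (GRCm38.p6), in which 4 of the 8 genes had promoters, 8 windows in all. "Like peaks" have a −log10 q within 20% and lie on chromosome 11 outside the flanking genes. Shares have 95% Wilson intervals, which cover only counting error.

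The genes and lists were chosen with earlier results of these data known. Named were all 8 genes and, for Skap1, the 3 genes of like length outside chromosome 11 with the nearest counts. Promoters were shown where a summit lay within 300 bp of a start, except overlapping inner Nfe2l1 windows. Alternatives tried were distances of 2 and 20 kb, the 20000 strongest peaks, a −log10 q from 10 up, matching by 250 bp, any overlap or a reciprocal overlap of 50%, offsets 100 bp larger or smaller, and a looser motif. Motifs were searched in the promoter windows only, since no genome sequence was used here.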

Additional observations from a re-analysis of the deposited data

How the results depend on the processing

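No paired analysis was possible because each genotype has 1 library. Of 123 values under an alternative, 89 stayed within the limits set for a match and 34 moved, among them none under another way of matching summits or another offset. With a −log10 q of at least 10, positions in all 4 libraries numbered 16, the summits 39, 23 and 24 in the Ins, Del(CBS8-10) and Inv libraries, the share of Ins summits found in the Inv:Del(CBS7-10) list was 87.2%, and 89.7% of Ins summits had a partner on the other copy. The member genes with a summit numbered 8, 7, 6 and 8 with that minimum and 8, 7, 8 and 8 within 2 kb. With the 20000 strongest peaks they numbered 6, 5, 6 and 4. Positions in all 4 libraries then numbered 3, and summits 7, 6, 14 and 9. Then 71.4% and 42.9% of Ins summits were found in the Inv and Inv:Del(CBS7-10) lists, and 57.1% and 50.0% of Ins and Del(CBS8-10) summits on the other copy. The share of all genes with a summit was 58.3%, 49.3%, 47.1% and 61.1% with that minimum, 33.1%, 32.7%, 32.1% and 31.9% with the 20000 strongest, 49.7%, 44.3%, 42.5% and 50.0% within 2 kb, and 77.8%, 75.2%, 72.0% and 79.0% within 20 kb. With the third letter of the motif free (CCNNNAGNNGGC), 8.61% of promoters matched. Counting either copy gave 32 positions in all 4 libraries, and leaving out the Inv library 38 in the other 3, both settings chosen after the data were seen. An absent summit was not called and is not shown to be unbound, and the part of depth in it was not tested.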

Other observations

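Genes around the flanking genes also had CTCF summits. All 22 listed neighbours, from Zfp652 and Phb on one side to Kpnb1 and Tbx21 on the other, had a summit within 10 kb in every library, as did 73.0% of protein-coding genes and 56.1% of all genes. Of 18 relatives of the flanking genes elsewhere in the genome, such as Cbx5, Nfe2l2 and Skap2, 17 did, which is to be read against the same shares. The exception was Nfe2l3, a relative of Nfe2l1, whose strongest summit stood at a −log10 q of 43.4 for Ins, 19.3 for Del(CBS8-10) and 33.2 for Inv:Del(CBS7-10), and which had none in the Inv library. On the Del copy 15 further positions near the flanking genes had no summit on the chromosome with the array in any library. They were weak, with a −log10 q of at most 8.30, and 14 of them were in 1 library.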
